A study of Mus musculus with 6 samples.

Results

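The genes examined here encode the subunits, assembly chaperones and regulators of the proteasome, measured by RNA-seq in the mouse hippocampus (HIPP). They were chosen by symbol: rows of the deposited table whose symbol begins with Psm, a letter from a to g and a number, leaving out Psmb8 and Psmb9. This gave 50 of the 16060 rows, with 49 distinct symbols because Psmd5 stands on 2 rows under a single Ensembl identifier. Adult male C57BL/6 mice of the MA group were injected with methamphetamine (MA) at 5 mg/kg in the first week, 10 mg/kg in the second and 15 mg/kg in the third, and the control group was injected with saline. Behavior was tested on day 22, and the tissue was taken directly afterwards. The HIPP was sequenced in 3 samples of each group, read here as 1 library per mouse, which the sample titles do not state. All comparisons below set the 3 MA libraries against the 3 control libraries.

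The proteasome is the large protease complex that degrades proteins marked with ubiquitin. Its barrel, the 20S core, is built of stacked rings of alpha and beta subunits, and 3 of the beta subunits (Psmb5, Psmb6 and Psmb7) carry the proteolytic sites inside the barrel. The 19S regulatory particle sits on the ends of the barrel: a base with ATPase subunits (Psmc genes) unfolds the substrate, and a lid (most Psmd genes) holds the enzyme that removes the ubiquitin chain. Neurons depend on this system for the turnover of synaptic proteins. Since the subunits are assembled in fixed numbers, their genes are generally expressed together.

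Of the 50 rows, 45 passed the filter on low values (3 or more of the 6 libraries with a back-transformed value of 0.5 or higher) and were tested. They comprised all 14 subunits of the standard 20S core, 17 subunits of the 19S particle, 3 chaperones of 19S assembly, 4 chaperones of 20S assembly, 5 genes of other activators and of an inhibitor, the immunoproteasome subunit gene Psmb10, and Psmc3ip. Psmc3ip is a member by its name only: it encodes a cofactor of meiotic recombination and no proteasome subunit. The 5 rows that did not pass were the testis subunit Psma8, the thymus subunit Psmb11, Psme2b, the pseudogene Psmb7-ps2 and the lower of the rows of Psmd5. Psma8 lay between 0 and 0.369 over the libraries and Psmb11 between 0.0274 and 0.185 on the log2 scale. Psme2b lay between 0.203 and 0.778 on the log2 scale, the lower row of Psmd5 between 0 and 0.191, and Psmb7-ps2 between 0 and 0.0818.

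The values are on a log scale, read as log2 of an RPKM-type value plus 1, so that levels are taken as per gene length. The gene lengths used and the handling of reads that match several genes are not known, so levels of different genes compare only roughly. Libraries had been brought to nearly the same distribution before deposit, and read depth is unknown. The library MA 3 stood apart: it listed no gene at 0, where the other libraries listed between 259 and 437. Relative to the mean of MA 1 and MA 2, the median of MA 3 was 0.176 higher (log2) over the 3326 shortest of the 13302 tested genes with an annotated length, and 0.167 lower over the 3326 longest. The controls have no part in this comparison, so it does not tell which MA libraries depart from them in relation to length. Markers of hippocampal excitatory neurons (7 of 7 in the table) were present in every library, at 2.70 or above on the log2 scale. Of these, 2 (Neurod6 and Wfs1) were lower in each MA library than in each control library, as were 10.2% of all tested genes. The lowest log2 fold change was -0.43, and 0 of 7 passed the adjusted threshold. The summed back-transformed level of the 7 was 1390 to 1500 for control and 1203 to 1725 for MA. All 9 choroid plexus markers were higher in each MA library than in each control library (7.32% of all tested genes were), and 6 passed the adjusted threshold (0.263% did). Their summed back-transformed level was 66.1 to 421 in the control libraries and 1781 to 5087 in the MA libraries. All 5 erythrocyte markers were likewise higher without overlap, with 3 past the adjusted threshold and sums of 1599 to 2024 against 3319 to 4378. None of these markers was at 0 in any library. Their part in the proteasome values was not tested, and a lower count of cells of a type cannot be told apart from less RNA per cell in such tissue.

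The subunit genes of both particles were abundant in the HIPP, and the core lay above the regulatory particle in every library. Averaged over its 14 genes, the 20S core was at 6.97, 6.94 and 6.90 on the log2 scale in control replicates 1, 2 and 3, and at 6.82, 6.85 and 6.97 in MA replicates 1, 2 and 3. Over its 17 genes, the 19S particle was at 5.93, 5.92 and 5.91 in the control libraries and at 5.87, 5.90 and 5.91 in the MA libraries. The level of the core was thus close to 2 times that of the regulatory particle on the scale of the value plus 1. Only 2 of the 19S genes, Psmc5 and Psmc1, exceeded the median level of the core genes, and 1 core gene, Psma5, lay below the median of the 19S genes.

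Within the core, the order of mean levels ran from Psmb6 and Psmb5, 2 of the proteolytic subunits, through Psmb3, Psmb4, Psmb1, Psmb7, Psma7, Psma3, Psma6, Psma2, Psma4, Psmb2 and Psma1 to Psma5. Psmb6 averaged 7.77 on the log2 scale (back-transformed mean 219) and Psma5 averaged 5.88 (back-transformed mean 58.0), a span of 1.89. Beta subunits therefore filled the first places and alpha subunits most of the last ones. Of the 31-base words in the longest transcripts of Psmb5 and Psma5, 74.0% and 66.5% also occur in other genes, so the places of these genes are uncertain. Within the 19S particle the ATPase gene Psmc5 was highest at 7.53 and the lid gene Psmd11 lowest at 4.19, a span of 3.34. Neighbours in these orders were mostly not separated: the ranges over the 6 libraries overlapped in 10 of 13 neighbouring pairs of the core and in 12 of 16 of the 19S particle. A single gene varied little between libraries in comparison, with a median range of 0.217 in the core and 0.216 in the 19S particle.

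**Figure D1:**
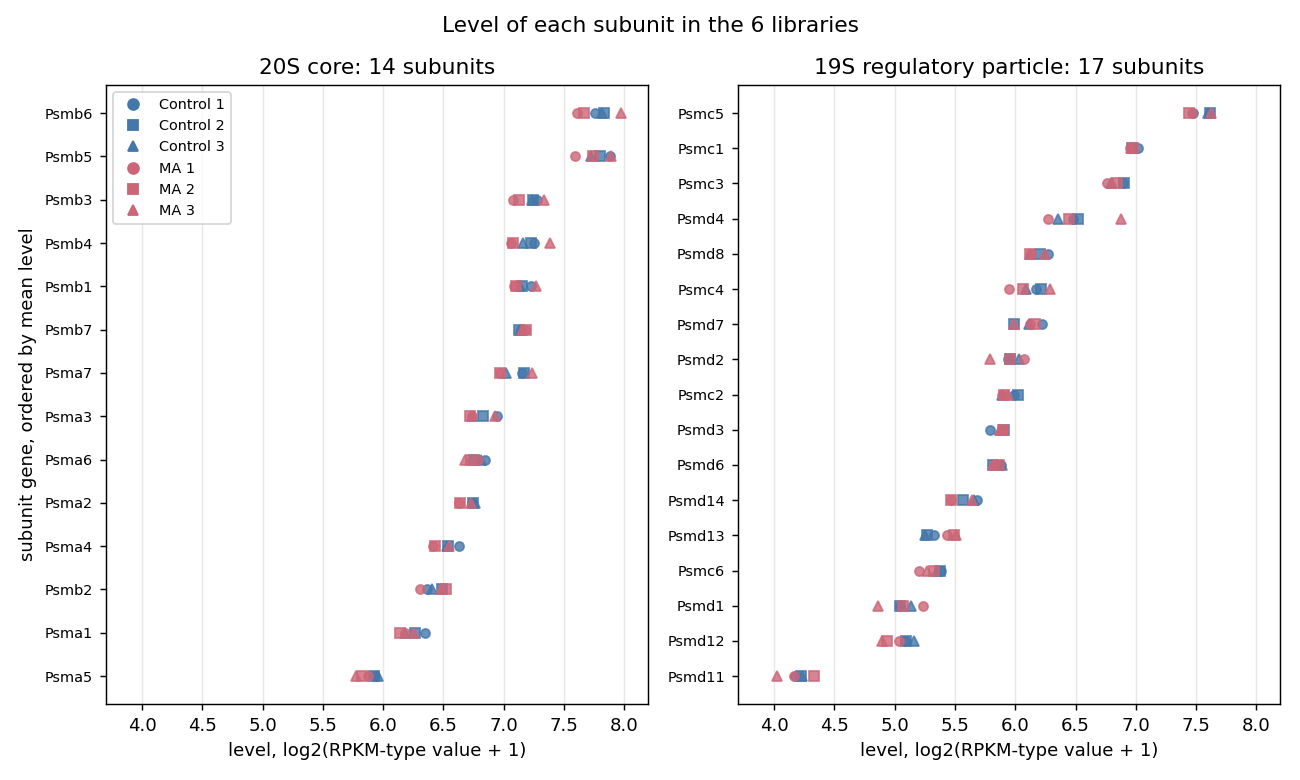
Level of each 20S core and 19S regulatory particle gene on the log2 scale (horizontal axis), genes ordered by mean level, with 1 point per library (blue for control, red for MA, symbols for the replicate number). The libraries of a gene lie within 0.601 of each other, while the genes span 1.89 in the core and 3.34 in the regulatory particle.

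No proteasome gene differed between MA and control mice at an adjusted p-value under 0.05. In the limma fit over all 13321 tested genes, 0 of the 45 members passed this threshold, which 0.263% of all tested genes passed, and the smallest adjusted p among the members was 0.417. At an unadjusted p under 0.05 there was 1 member, the lid gene Psmd13, or 2.22% of the members against 10.4% of all tested genes. By direction, 1 member was higher and 0 were lower, against 4.99% and 5.46% of all tested genes. In direction, 36 of 45 members had a lower mean in MA, where 52.7% of all tested genes did. The members were measured in the same libraries and are not independent observations, so this count is a description. The median log2 fold change (MA minus control) was -0.054 over the members and -0.010 over all tested genes. The groups did not overlap in 6 members (13.3%), against 17.5% of all tested genes. Of these, 2 members were higher in MA (4.44%, against 7.32% of all tested genes) and 4 were lower (8.89%, against 10.2%). Over the 45 members, each of these shares of called or non-overlapping members was below that of all tested genes. Within the particles this did not hold: the groups did not overlap in 3 of 14 core genes (21.4%) and 3 of 17 genes of the 19S particle (17.6%), against the same 17.5%. With sample quality weights, which give less weight to libraries that deviate more, 6 members (13.3%) had an unadjusted p under 0.05 against 26.3% of all tested genes, and 0 passed the adjusted threshold against 4.4%.

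The fit also gives a 95% interval for each gene, unadjusted for the number of genes. The normalization before deposit is not described and can shrink differences, so the intervals describe the deposited values only. For the 14 core genes, the 95% intervals of the log2 fold change all lay between -0.30 and 0.21, or between 0.813-fold and 1.16-fold. For the 17 genes of the 19S particle they lay between -0.34 and 0.43, or between 0.790-fold and 1.35-fold. The wider bounds over all 45 members, from -0.77 for Psme2 to 0.49 for Psme1, belonged to activator genes.

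**Figure D2:**
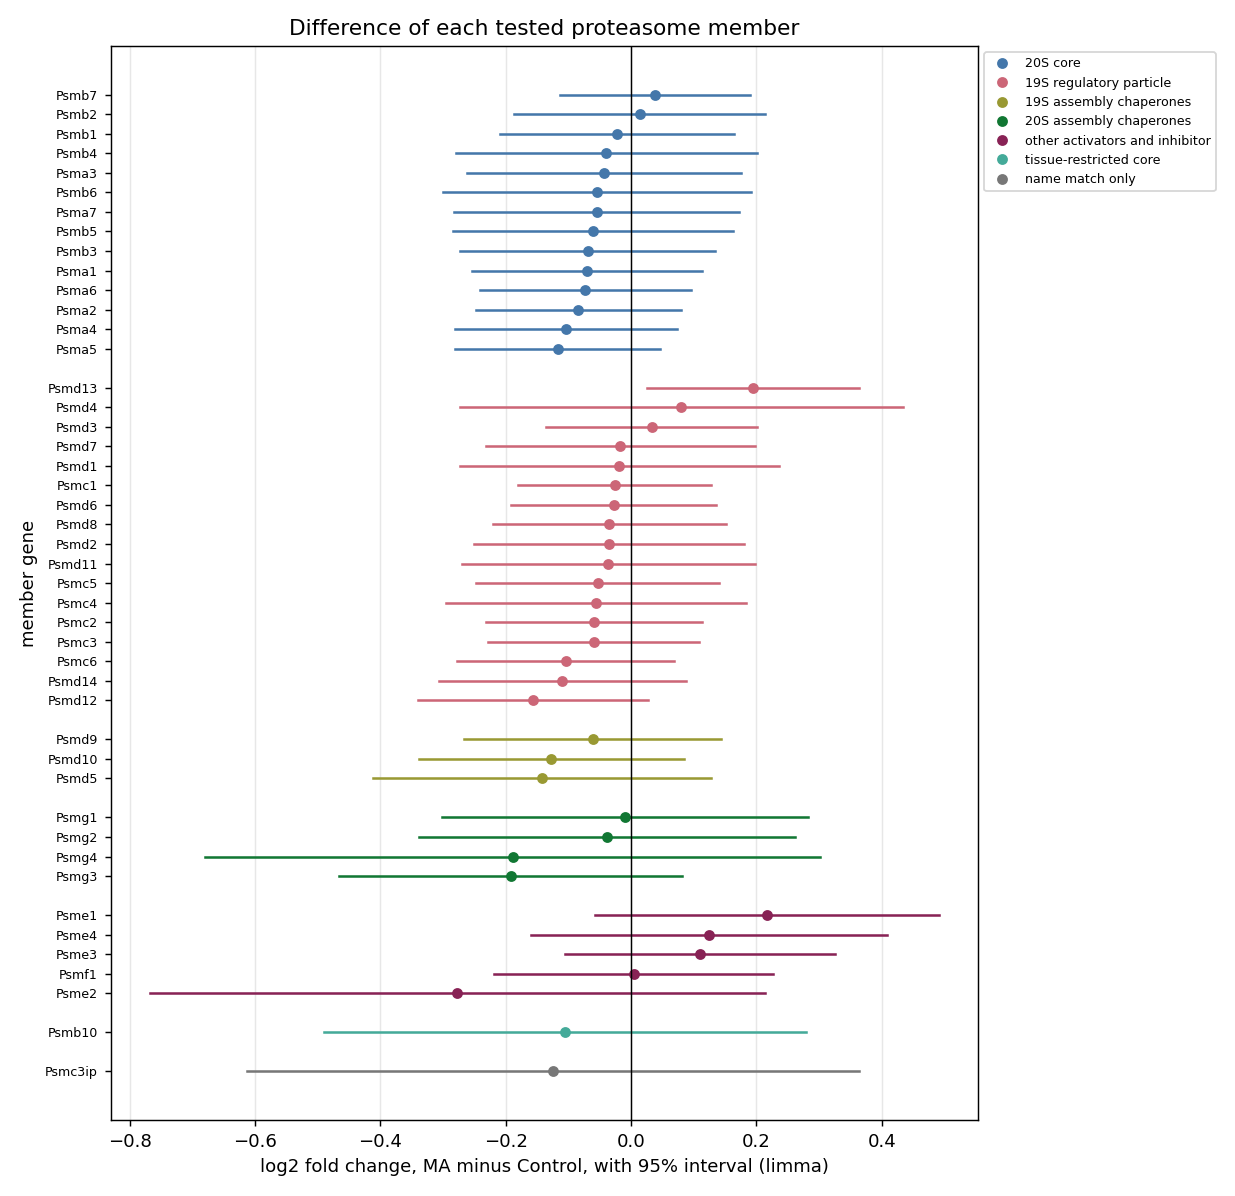
Log2 fold change of each tested member (MA minus control, horizontal axis) as a point with its 95% interval from limma as a line, colored by particle or role. The interval of Psmd13 is the only one of the 45 that leaves out 0, at 0.026 to 0.36.

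The 3 proteolytic subunits of the core illustrated the size of these differences. Psmb5, the chymotrypsin-like subunit, was at 7.88, 7.80 and 7.72 (log2 level) in control replicates 1, 2 and 3, and at 7.60, 7.74 and 7.89 in MA replicates 1, 2 and 3. The groups overlapped, since MA 3 was the highest of the 6 libraries and MA 1 the lowest. The log2 fold change of Psmb5 was -0.061, with a standard error (SE) of 0.095 and a limma adjusted p of 0.881. Psmb6, the caspase-like subunit, was at 7.76, 7.83 and 7.81 in the control libraries and at 7.61, 7.67 and 7.97 in the MA libraries. Here MA 1 and MA 2 were below every control library and MA 3 above every one, which left a log2 fold change of -0.054 (SE 0.10, limma adjusted p = 0.909). Psmb7, the trypsin-like subunit, was at 7.14, 7.13 and 7.13 in the control libraries and at 7.18, 7.19 and 7.15 in the MA libraries. Its range of 0.062 was the smallest among the core genes. All 3 MA libraries lay above the controls by a small margin, with a log2 fold change of 0.038 (SE 0.065, limma adjusted p = 0.893).

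Among the other core genes, all 7 alpha subunits had a lower mean in MA, with log2 fold changes from -0.12 to -0.043 and a median of -0.073. The smallest unadjusted p among them was 0.137 (limma). Psma5, the lowest core gene, was at 5.94, 5.93 and 5.96 (log2 level) in the control libraries and at 5.87, 5.82 and 5.78 in the MA libraries. Every MA library of Psma5 lay below every control library, and the log2 fold change was -0.12 (SE 0.070, limma adjusted p = 0.624). Psma2 was the other core gene with lower values in MA and no overlap, at -0.084. Psma5 is uncertain, because 66.5% of the 31-base words in its longest transcript also occur in transcripts of other genes, mainly pseudogenes, between which reads could be split. The same holds for Psmb5, with 74.0%. Of the 45 tested members, 8 shared at least 20% of these words with another gene: Psma3, Psma4, Psma5, Psmb5, Psmc1, Psmc3ip, Psmd2 and Psme2.

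In the 19S base, all 6 ATPase genes had a lower mean in MA, with log2 fold changes from -0.10 to -0.026. Psmc6 was at 5.38, 5.38 and 5.35 (log2 level) in the control libraries and at 5.20, 5.32 and 5.27 in the MA libraries. It had the largest of these differences and no overlap between groups (log2 fold change -0.10, SE 0.074, limma adjusted p = 0.689). Psmc5, the most abundant 19S gene, was at 7.47, 7.62 and 7.60 in the control libraries and at 7.46, 7.44 and 7.62 in the MA libraries. The groups of Psmc5 overlapped, and the log2 fold change was -0.053. The scaffold genes of the base, Psmd1 and Psmd2, differed by -0.019 and -0.035. Psmd4, a receptor for ubiquitin chains, was at 6.48, 6.52 and 6.35 in the control libraries and at 6.27, 6.45 and 6.87 in the MA libraries. Its values in MA 1 and MA 3 were the lowest and the highest of the 6, so that its mean difference of 0.080 (limma adjusted p = 0.905) rested on MA 3 and was -0.091 without that library.

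The lid held the members with the smallest p-values in both directions. Psmd13, a structural lid subunit (Rpn9), was at 5.32, 5.27 and 5.25 (log2 level) in the control libraries and at 5.44, 5.49 and 5.51 in the MA libraries. The groups did not overlap, and the library means were 5.28 ± 0.036 and 5.48 ± 0.038 (SD, n = 3 each). The log2 fold change of Psmd13 was 0.20, or 1.14-fold with a 95% interval of 1.02-fold to 1.29-fold (unadjusted limma p = 0.0290, adjusted p = 0.417, exact permutation p = 0.1). It did not pass the threshold over all tested genes, and its unadjusted call was lost on leaving out any 1 control library or MA 2, with log2 fold changes of 0.18 to 0.22 when each of the 6 libraries was omitted in turn. The Psmd13 gene spans bases 140881968 to 140898643 of chromosome 7 (GRCm38, plus strand), where Sirt3 overlaps it on the other strand. As the sources used here do not state whether counting used strand, reads from the overlap could be assigned to either gene. Of the 31-base words in the longest transcript of Psmd13, 16% also occur in Sirt3. In all, the spans of 17 of the 45 tested members, introns included, are overlapped by a gene on the other strand. Among them are Psma5, Psma2, Psmb7, Psmb10, Psmd14, Psme1 and Psme4. An overlap of spans need not be an overlap of transcripts: Psmb10 and Psme4 share 0.0% of these words with other genes. Psmd12 (Rpn5), also a structural lid subunit, was at 5.08, 5.09 and 5.16 in the control libraries and at 5.04, 4.94 and 4.89 in the MA libraries. It lay lower in each MA library, with a log2 fold change of -0.16 (SE 0.079, unadjusted limma p = 0.0852, adjusted p = 0.558, exact permutation p = 0.1).

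Psmd14, the deubiquitinase of the lid, was at 5.68, 5.56 and 5.66 (log2 level) in the control libraries and at 5.46, 5.47 and 5.64 in the MA libraries. MA 3 lay among the controls, and the log2 fold change was -0.11 (SE 0.084, limma adjusted p = 0.714). Psmd11, the lid subunit with the lowest level, was at 4.18, 4.22 and 4.23 in the control libraries and at 4.16, 4.33 and 4.02 in the MA libraries. Its MA libraries surrounded the controls (log2 fold change -0.036, limma adjusted p = 0.938), and the difference was 0.039 without MA 3. The remaining lid genes Psmd3, Psmd6, Psmd7 and Psmd8 had log2 fold changes from -0.035 to 0.033. The exact permutation test (two-sided) gave p = 0.1 for each of the 6 members without overlap, the smallest value that 3 libraries against 3 allow.

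Promoter sequence was read for the members with the smallest p-values in the 19S particle and for the most abundant core genes. RefSeq promoter windows (GRCm38.p6, 250 bases before to 50 after the start, 300 in all) were matched by symbol for 38 of the 45 tested members. On both strands, TGACNNNGC, the core of the antioxidant response element to which the proteasome regulator Nfe2l1 binds, was found in 6 of these 38 genes (15.8%), against 12.4% of all 32851 promoters. CCAAT, the box bound by NF-Y, was found in 13 (34.2%) against 37.4%. CCGGAAG, a core site of the Ets family, was found in 15 (39.5%) against 8.86%. The 32851 promoters were not limited to tested genes, whereas all 38 member genes had passed the filter on low values. No share over the promoters of tested genes was taken, so these percentages are not for like sets. Some genes have more than 1 window, and counted per window CCGGAAG was in 16 of 41. The motifs were chosen with the results known, they can overlap, and a match is a description of letters only. The sequences below hold 250 bases before and 10 after the start, 5′ to 3′ on the strand of the gene, with matches to TGACNNNGC or CCGGAAG on either strand in capitals. Psmb5 (chr14:54617986-54618245, minus strand) and Psmb6 (chr11:70525107-70525366, plus strand) each hold a match to TGACNNNGC near the start. Psmc6 (chr14:45329574-45329833) and Psmd12 (chr11:107479278-107479537), both on the plus strand and lower in MA without overlap, hold both motifs. Their matches to TGACNNNGC lie near the 5′ end of the sequence, far from the start. Psmd13 (chr7:140882144-140882403, plus strand), higher in MA without overlap, holds a match to CCGGAAG at the start site. Psma2, also lower without overlap, has a window but no match to either motif. Psma5 (lower) and Psmb7 (higher), also without overlap, are not among the matching genes, possibly for want of a window. Whether motif content goes with the direction of the difference was not tested.
Psmb5: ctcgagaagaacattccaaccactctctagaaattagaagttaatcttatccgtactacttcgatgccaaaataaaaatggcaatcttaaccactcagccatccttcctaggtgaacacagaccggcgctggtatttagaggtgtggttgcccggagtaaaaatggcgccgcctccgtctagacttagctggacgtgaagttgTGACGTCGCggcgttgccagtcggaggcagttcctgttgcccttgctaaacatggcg
Psmb6: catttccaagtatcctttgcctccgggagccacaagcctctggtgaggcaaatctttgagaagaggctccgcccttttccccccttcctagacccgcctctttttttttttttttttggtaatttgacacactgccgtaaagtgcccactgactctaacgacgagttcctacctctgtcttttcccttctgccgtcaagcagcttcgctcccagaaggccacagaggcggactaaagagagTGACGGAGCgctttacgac
Psmc6: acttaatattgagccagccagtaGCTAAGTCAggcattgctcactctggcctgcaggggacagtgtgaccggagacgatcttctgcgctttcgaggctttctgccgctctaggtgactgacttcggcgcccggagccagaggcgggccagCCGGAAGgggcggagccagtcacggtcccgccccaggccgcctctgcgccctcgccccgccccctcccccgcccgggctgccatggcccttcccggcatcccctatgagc
Psmd12: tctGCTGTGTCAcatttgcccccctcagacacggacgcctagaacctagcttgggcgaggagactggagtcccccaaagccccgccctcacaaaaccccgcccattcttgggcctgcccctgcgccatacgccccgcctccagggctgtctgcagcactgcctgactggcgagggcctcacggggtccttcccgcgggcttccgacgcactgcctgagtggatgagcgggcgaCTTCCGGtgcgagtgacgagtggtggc
Psmd13: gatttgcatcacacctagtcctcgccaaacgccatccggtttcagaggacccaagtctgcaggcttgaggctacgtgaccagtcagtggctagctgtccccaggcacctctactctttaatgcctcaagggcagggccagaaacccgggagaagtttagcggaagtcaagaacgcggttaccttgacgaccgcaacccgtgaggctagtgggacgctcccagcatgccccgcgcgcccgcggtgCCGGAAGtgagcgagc

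Core and regulatory particle were then set against each other within each library, which removes any shift that both share. The mean over the core genes minus the mean over the 19S genes was 1.03, 1.01 and 0.989 (log2) in control replicates 1, 2 and 3. In MA replicates 1, 2 and 3 it was 0.947, 0.948 and 1.07. The gap was thus smaller than in every control in MA 1 and MA 2 and larger than in every control in MA 3. The mean gap was 1.01 ± 0.023 for control and 0.988 ± 0.070 for MA (SD, n = 3 each). The difference of the gap was -0.024, less than the pooled SD of 0.052. Taken singly, the core mean was 0.053 lower in MA, which is within its pooled SD of 0.062, and its groups overlapped through MA 3. The 19S mean was 0.029 lower in MA, more than its pooled SD of 0.014. Each MA library lay below each control library in the 19S mean, but MA 3 at 5.9055 only just below control replicate 3 at 5.9119. The fold of 0.980 was nearer to 1 than that of the core, 0.964. The 19S subunit genes Adrm1 and Shfm1 fall outside the symbol rule and are not in the 19S mean. In both, MA 3 (5.88 and 5.51) was above every control library, with control replicate 3 at 5.63 and 5.44. Counting both genes in puts the 19S mean of MA 3 above that of control replicate 3. The separation of the groups in the 19S mean thus depends on the symbol rule. These means are over members chosen with earlier results known, and no p-value is given for them.

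**Figure D3:**
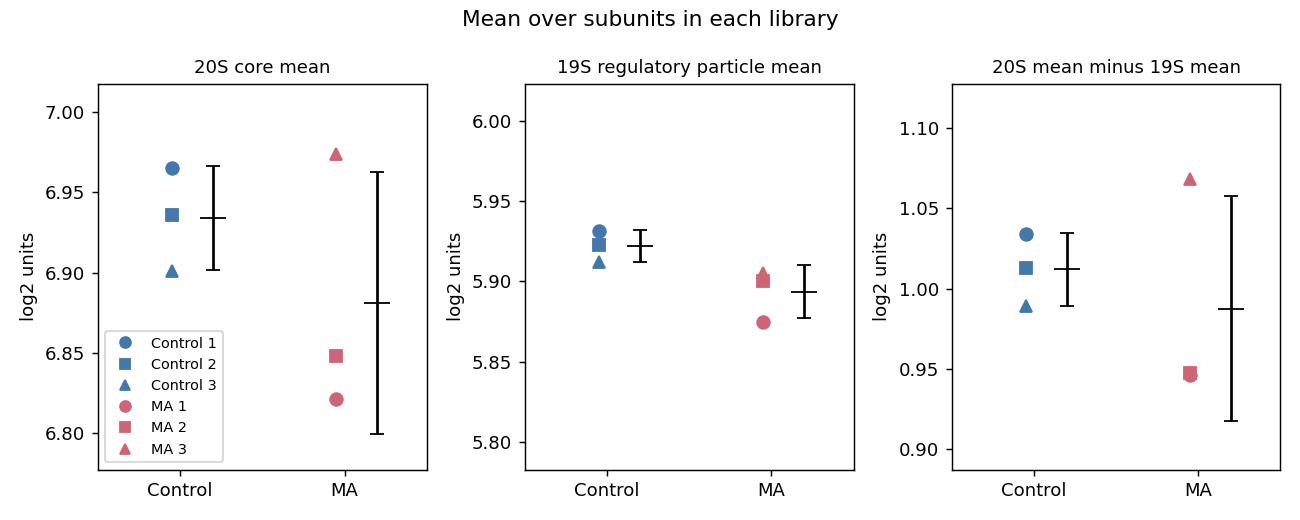
Mean log2 level over the 14 core genes, over the 17 regulatory particle genes, and the difference of both, with 1 symbol per library and the group mean with its SD (n = 3) in black. The vertical axes cover the same width. MA 3 lies above all controls in the core mean and in the difference. Every MA library lies below the controls in the regulatory particle mean, MA 3 only just, and this does not hold with Adrm1 and Shfm1 counted in.

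The split between MA 3 and the other MA libraries ran through most of the members. Of the 45, 33 were higher in MA 3 than in the mean of MA 1 and MA 2, with a median difference of 0.11 (log2), against -0.0053 over the tested genes as a whole. In the core this held for 11 of 14 genes with a median of 0.15, and in the 19S particle for 9 of 17 with a median of 0.0059. Shorter genes lay higher in MA 3: Pearson's r between this difference and log2 exonic length was -0.503 across the 45 members and -0.320 across the 13302 tested genes with a length. Genes are not independent replicates, and the libraries behind all points are the same, so these values are descriptions. The median exonic length was 2335 bases for the core genes and 2820 bases for the 19S genes. Psmg4, with 555 bases the shortest of the tested members, had the largest difference at 0.77, and Psmd1, with 7265 bases, the most negative at -0.29.

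Results without MA 3 do not mark it as the deviating library. The core mean of MA 3, 6.97, lay nearer to the control mean of 6.93 than those of MA 1 (6.82) and MA 2 (6.85). Without MA 3, the median difference between MA and control was -0.11 over the core genes, with 13 of 14 below 0, and -0.062 over the 19S genes, with 11 of 17 below 0. The core mean was then lower by 0.099 and the 19S mean by 0.035. All control libraries then lay above both MA libraries for 9 of 14 core genes (64.3%), 5 of 17 genes of the 19S particle (29.4%) and 22 of all 45 members (48.9%), where 22.1% of all tested genes did. The reverse, MA 1 and MA 2 above every control, held for 3 of 45 members (6.67%), against 20.8% of all tested genes. At an unadjusted p-value under 0.05 there were then 11 members, or 24.4%, near the 23.3% of all tested genes that passed at the same setting. Of these, 9 were lower in MA (Psmb3, Psmb4, Psmb6, Psmb10, Psmc3ip, Psmd14, Psmg2, Psmg3 and Psmg4) and 2 were higher (Psmd13 and Psme3). None of the 45 passed the adjusted threshold in this fit, which 1.93% of all tested genes passed. After a correction of each library for exonic length, chosen after seeing the data, the core mean was 0.041 lower in MA and the 19S mean 0.018 lower with all 6 libraries. In that fit 1 member had an unadjusted p under 0.05 (11.6% of all tested genes did) and 0 passed the adjusted threshold (0.226% did).

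**Figure D4:**
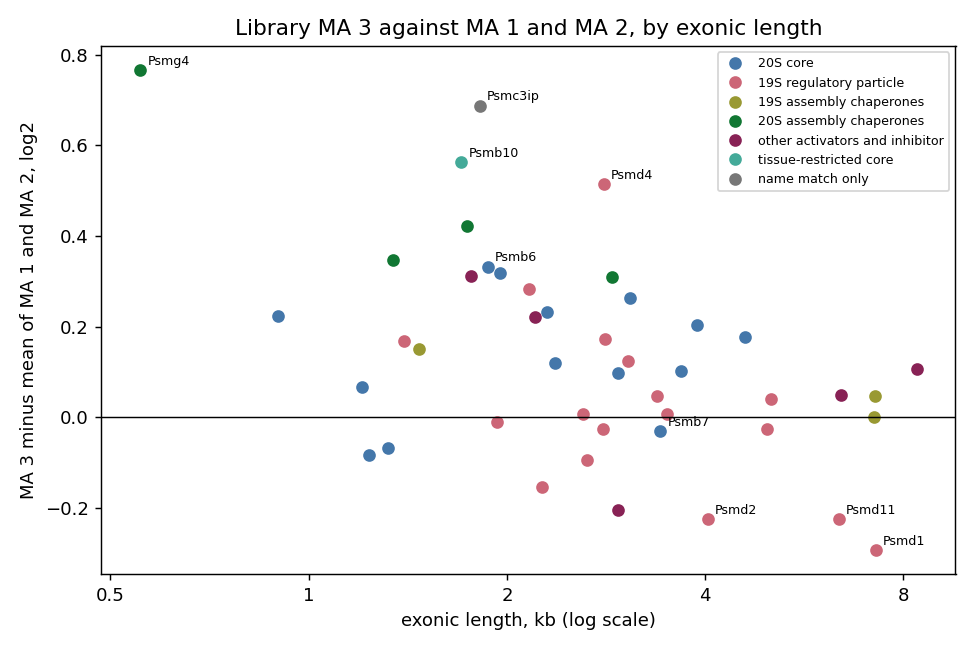
Difference between the library MA 3 and the mean of MA 1 and MA 2 (vertical axis, log2) against exonic length in kilobases (horizontal axis, log scale) for the 45 tested members, colored by particle or role. Psmg4 lies at the upper left at 0.77 and Psmd1 at the lower right at -0.29.

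The 4 chaperones of 20S assembly (Psmg genes) had log2 fold changes from -0.19 to -0.0093, with 0 of 4 past an unadjusted p of 0.05 and overlapping groups in all 4. Without MA 3, the groups of all 4 did not overlap and MA was lower, which held for 22.1% of all tested genes. Psmg3 was at 4.07, 4.26 and 4.22 (log2 level) in the control libraries and at 3.93, 3.84 and 4.20 in the MA libraries. MA 3 lay among the controls, and the log2 fold change of Psmg3 was -0.19 (SE 0.12, limma adjusted p = 0.631). Psmg4 was at 5.60, 5.60 and 5.48 in the control libraries and at 4.98, 5.25 and 5.88 in the MA libraries, the widest range among the members at 0.898. Its log2 fold change was -0.19 with a 95% interval from -0.68 to 0.30.

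The chaperones of 19S assembly, Psmd5, Psmd9 and Psmd10, had log2 fold changes of -0.14, -0.061 and -0.13. Psmd10, also known as gankyrin, was at 3.80, 3.68 and 3.72 (log2 level) in the control libraries and at 3.54, 3.58 and 3.71 in the MA libraries. The groups overlapped through MA 3, and the limma adjusted p was 0.689.

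Activators that replace the 19S particle on the barrel differed in direction. Psme1, a subunit of the interferon-inducible 11S activator, was at 5.22, 5.41 and 5.58 (log2 level) in the control libraries and at 5.58, 5.52 and 5.77 in the MA libraries. MA 1 and MA 2 lay within the range of the controls, and the log2 fold change was 0.22 (SE 0.12, limma adjusted p = 0.585). Psme2, the partner of Psme1 in the same ring, was at 6.06, 5.25 and 5.39 in the control libraries and at 5.18, 5.19 and 5.50 in the MA libraries. Control replicate 1 was above all other libraries, and the other 2 controls lay within the range of the MA libraries (log2 fold change -0.28, SE 0.21, limma adjusted p = 0.709). Psme2 is uncertain because 66.2% of its 31-base words occur in other genes, chiefly Psme2b.

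The nuclear activator gene Psme3 was at 4.92, 5.04 and 4.96 (log2 level) in the control libraries and at 5.20, 5.10 and 4.95 in the MA libraries, with a log2 fold change of 0.11 (limma adjusted p = 0.739). Psme4, which encodes the activator PA200, was at 2.97, 2.70 and 2.60 in the control libraries and at 2.80, 2.90 and 2.95 in the MA libraries, with a log2 fold change of 0.12 (limma adjusted p = 0.782). In both genes the groups overlapped. Psmf1, an inhibitor of the core in vitro, was at 3.59, 3.75 and 3.73 in the control libraries and at 3.59, 3.77 and 3.73 in the MA libraries. The groups of Psmf1 overlapped, with a log2 fold change of 0.0041 and a 95% interval from -0.22 to 0.23.

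Psmb10 encodes the immunoproteasome subunit that takes the place of Psmb7. It was at 4.997, 5.24 and 5.21 (log2 level) in the control libraries and at 4.84, 4.87 and 5.42 in the MA libraries. As in Psmb6, MA 1 and MA 2 were the lowest of the 6 libraries and MA 3 the highest (log2 fold change -0.11, SE 0.16, limma adjusted p = 0.879). For Psmb10 this difference was -0.0061 without MA 1, -0.018 without MA 2 and -0.29 without MA 3. Its level lay below that of Psmb7 in every library. Psmc3ip, the member by name only, was at 2.48, 2.79 and 2.50 in the control libraries and at 2.12, 2.35 and 2.92 in the MA libraries.

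Genes that work with the proteasome but fall outside the symbol rule were examined from a list of partners: further 19S and assembly factors, ubiquitin shuttles, deubiquitinases, the Vcp segregase, ubiquitin genes and transcription factors of proteasome genes. All 29 that were found in the table were tested. Of the 29, 0 passed the adjusted threshold, against 0.263% of all tested genes, and 1 passed an unadjusted p of 0.05, against 10.4%. This was Ddi2, a protease that activates Nfe2l1, at 3.17, 3.02 and 3.10 (log2 level) in the control libraries and at 2.91, 2.90 and 2.72 in the MA libraries. The groups did not overlap, with a log2 fold change of -0.26 (SE 0.10, unadjusted limma p = 0.0365, adjusted p = 0.442, exact permutation p = 0.1). Of the higher partners, Ufd1l, a cofactor of Vcp, had the smallest p, with levels of 5.03, 5.03 and 5.05 in the control libraries and 5.26, 5.14 and 5.15 in the MA libraries (log2 fold change 0.15, SE 0.075, limma adjusted p = 0.563). Over the 29 partners, 12 had a lower and 17 a higher mean in MA, where 52.7% of all tested genes were lower, and the median log2 fold change was 0.015. Nfe2l1 itself, the factor that raises proteasome genes when proteolysis is impaired, differed by 0.025 with a 95% interval from -0.25 to 0.30.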

How the data were processed

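HIPP RNA of 3 control and 3 MA samples was sequenced. The authors deposited 1 table of values named RPKM, which lie on a log2 scale (read as log2 of the value plus 1). According to the paper's methods, reads were aligned with Hisat2, counted with featureCounts and converted to FPKM, whereas the submitters' processing notes name Bowtie 0.12.2 with mm8 and mm9. The log transform and the normalization between libraries are not described, and either can shrink differences. The paper and the labels name different RNA and library kits. The files give no read depth.

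Each of the 6 value columns carries the title of a single sample, and 0 other value columns exist. Deposited values were tested without a further offset by limma 3.58.1 in R 4.3.3 (lmFit, eBayes with trend, no covariate, Benjamini-Hochberg adjustment over 13321 genes). Intervals are limma's 95% intervals, unadjusted for the number of genes. The p-values measure the spread between these libraries only. The code was tested on simulated tables. The members and the lists were chosen with earlier results of these data known.

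Exonic length is the union of exons in GENCODE release M21 (GRCm38), in which 15987 of 16031 Ensembl identifiers were found. As the submitters' builds differ, coordinates are for location only. Values per library were given for Psmb5, Psmb6, Psmb7, Psmb10, Psmd14, Psmd4 and Psmf1, the 5 higher and 5 lower members with the smallest p, and the highest and lowest gene of each particle. Psmg4, Psme2 and Psmc3ip were added after their values were seen, as were the 31-base word check and the length correction (lowess, span 0.3).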

Additional observations from a re-analysis of the deposited data

How the results depend on the processing

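The count of 0 members past the adjusted threshold held in all 17 fits. The count at an unadjusted p under 0.05, 1 with all libraries, ranged from 0 to 11 when each library was left out in turn: it was 0 without control replicate 1, control replicate 2 or MA replicate 2, and 11 without MA replicate 3. Without control replicate 3 it was 1, but the gene was Psme1 and no longer Psmd13. With limma's sample quality weights it was 6 (13.3% of the members, against 26.3% of all tested genes). Without a filter, with a minimum mean of 5, median centring, quantile normalization, a pseudocount of 0.1, no eBayes trend or the length correction it was 1.

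The groups share replicate numbers, but the deviations of same-numbered libraries correlated at -0.197, -0.242 and -0.337, so the numbers do not pair the mice. With the replicate block the count was 0, as it was with the block and the length correction together.

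The means moved by less than their SD under every alternative run. The core mean (MA minus control) stayed between -0.099 and -0.023, the 19S mean between -0.041 and -0.018, and the 19S mean minus the core mean between 0.0038 and 0.065. Of 180 values of single members under alternatives that kept all libraries, 2 changed sign, both with sample quality weights: Psmd4 at -0.036 and Psmd11 at 0.059. Of 108 values without 1 library, 7 did. The ranges were -0.14 to 0.012 for Psmb5, -0.16 to 0.015 for Psmb6, -0.091 to 0.21 for Psmd4, -0.046 to 0.058 for Psmf1 and -0.12 to 0.039 for Psmd11. Without a sign change, the values moved by over 1.5 times for Psmb10 (-0.29 to -0.0061), Psmc5 (-0.11 to -0.020), Psmg3 (-0.30 to -0.12), Psmd14 (-0.17 to -0.080), Psme1 (0.12 to 0.31), Psme3 (0.052 to 0.18) and Psme4 (0.046 to 0.23). The unknown read depth leaves counting error of the low members unmeasured.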

Other observations

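The immunoproteasome subunit genes left out by the symbol rule, Psmb8 and Psmb9, were low in the HIPP. Psmb8 was at 2.30, 2.28 and 2.40 on the log2 scale in control replicates 1, 2 and 3, and at 1.99, 2.24 and 2.49 in MA replicates 1, 2 and 3. Psmb9 was at 1.66, 1.60 and 1.87 in the control libraries and at 1.42, 1.31 and 2.32 in the MA libraries. In both genes, as in Psmb10, MA 1 and MA 2 lay below every control library and MA 3 above every one. The log2 fold changes were -0.084 for Psmb8 and -0.025 for Psmb9, with limma adjusted p-values of 0.893 and 0.985. Pomp, the maturation factor of the core, was at 7.56, 7.57 and 7.88 in the control libraries and at 7.98, 7.52 and 7.57 in the MA libraries. There MA 1 was the highest library and MA 2 the lowest, and the log2 fold change was 0.022 (limma adjusted p = 0.976).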
